A study of Homo sapiens with 6 samples.

Results

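The genes described here encode the ubiquitin and proteasome machinery: ubiquitin-conjugating enzymes, ubiquitin ligases and their receptors, deubiquitinases and proteasome subunits. They were measured by RNA sequencing of HT-29, a human cell line established from a colorectal cancer. Members were chosen by a rule on gene names, set with earlier results of these data known. They are protein coding genes whose symbols begin with family names of this machinery, such as UBE2, RNF, TRIM, CUL, FBX, KLHL or USP. Of the proteasome names the rule takes PSMA, PSMC, PSMD and PSME but not PSMB. Of the 5681 genes in the deposited table, 103 matched these names, and 3 of them (FBXW7, HERC5 and USP18) were left out by the rule, which left 100 members. The 3 Scramble libraries came from cells expressing a control hairpin, and their genotype is labelled WT. The 3 shOGT libraries came from cells in which OGT, the enzyme that attaches O-GlcNAc to nuclear and cytoplasmic proteins, was knocked down with a hairpin. No other allele or agent differs between the groups by the labels, no time after infection is given, and the hairpin used for these libraries is not named. The labels do not say whether the 3 libraries of a group came from separate cultures, so the p-values below measure the spread between libraries, which may be technical.

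Ubiquitin is activated by an E1 enzyme, passed to an E2 conjugating enzyme and placed on a substrate with the help of an E3 ligase. RING and TRIM ligases bring the E2 and the substrate together, HECT ligases carry the ubiquitin themselves, and cullin ligases are assembled from a scaffold, a RING protein and an exchangeable substrate receptor of the F-box, Kelch or DCAF kind. Deubiquitinases remove ubiquitin, and the proteasome, a 20S core capped by regulatory particles, degrades the tagged proteins. In proliferating epithelial cells this machinery times the cell cycle, repairs DNA and sets the life of short-lived proteins such as c-Myc, whose degradation by the proteasome is one of the questions of the study.

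Promoter sequences were available from RefSeq (GRCh38.p14) for 83 of the 100 members, each covering 250 bases before and 50 bases after the annotated start. The E-box CACGTG, the site bound by MYC and its partner MAX and identical on both strands, is shown because the study concerns c-Myc. It was present in 6 of the 83 promoters (7.23%), against 7.26% of all 35116 promoters and 9.69% of those of the protein coding genes in the table. Each E-box is printed in capitals with 10 bases on either side, 5′ to 3′ on the strand of the gene. The members holding it are FBXL2 (chr3:33277362-33277387, plus strand), OTUD1 (chr10:23439010-23439035, plus strand), UBE4B (chr1:10032940-10032965, plus strand), FBXW4 (chr10:101695336-101695361, minus strand), RNF227 (chr17:7916373-7916398, minus strand) and RNF44 (chr5:176537455-176537480, minus strand).
FBXL2: ccctgcgggtCACGTGctcgccgacc
OTUD1: ccagtgagtcCACGTGacgcggccgc
UBE4B: tgacgggggtCACGTGatccctttca
FBXW4: aaaccggcctCACGTGtttgcagcgc
RNF227: accgcccccaCACGTGccgccacagg
RNF44: gcccactagtCACGTGcgtggtcgcg
The first 3 of these genes were higher in shOGT than in Scramble and the last 3 were lower, so members with this motif were found in both directions.

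A second set of sequences belongs to PSME2, which encodes a subunit of the PA28 proteasome activator, and RNF31, which encodes the catalytic subunit of the linear ubiquitin chain assembly complex. These genes lie head to head on chromosome 14, and their RefSeq starts are 265 bases apart. The interferon-stimulated response element (GAAA, any 2 bases, GAAA, or its complement) was searched after the PSME2 promoter had been read. It was present in 3 of the 83 member promoters (3.61%), those of PSME2, RNF31 and TRIM14. This compares with 3.57% of all promoters and 2.95% of those of the protein coding genes in the table. All 3 genes were lower in shOGT. PSME2 and RNF31 share the same copy, read from opposite strands. The element bound by NRF2 and related factors (TGACNNNGC, both strands) was present in 16 of the 83 member promoters (19.3%), against 13.3% of all promoters and 14.7% of those of the protein coding genes in the table. Of these 16 genes, 7 were higher in shOGT and 9 were lower. PSME2 and RNF31 again share a copy of it, whereas PSME4, which encodes another proteasome activator and was higher in shOGT, holds its own. In OTUD1 it overlaps the E-box shown above. The capitals mark the interferon element in the first 2 lines and the TGACNNNGC element in the last 3, at chr14:24146619-24146648 (PSME2, minus strand), chr9:98119229-98119258 (TRIM14, minus strand), chr14:24146767-24146795 (PSME2, minus strand, and RNF31, plus strand) and chr2:53971009-53971037 (PSME4, minus strand).
PSME2: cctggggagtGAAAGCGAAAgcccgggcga
TRIM14: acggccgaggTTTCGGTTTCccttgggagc
PSME2: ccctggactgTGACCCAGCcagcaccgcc
RNF31: ggcggtgctgGCTGGGTCAcagtccaggg
PSME4: cccggcggctGCAGCGTCAccagcagagc
A match to these letters is a description of the sequence, and binding of a factor was not measured in these libraries.

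OGT itself was measured at 9628, 11638 and 11620 normalized counts in Scramble but at 484, 621 and 537 in shOGT. The knockdown therefore left 4.99% of the Scramble mean, and the groups did not overlap (log2 fold change -4.32, SE 0.107, limma adjusted p = 1.59e-12). An exact two-sided permutation test gave p = 0.1, the smallest value that 3 against 3 libraries allow. Between 4145921 and 4504303 reads per Scramble library and between 3302558 and 3471647 per shOGT library fell on the listed genes, which is not the full depth of a library. Replicates of a group differed by more than counting noise, so no library was a copy of another. Of 12 colon epithelial markers, CDH17, VIL1, KRT19, KRT20 and LGALS4 were in the table, 3 higher and 2 lower in shOGT, with summed values of 9062 to 10932 in Scramble and 18490 to 20474 in shOGT. The others, EPCAM and CDH1 among them, were not analysed here. Of 13 markers of fibroblasts, immune and endothelial cells, PDGFRB, CD79A and PECAM1 were in the table, all at a higher level in shOGT. Their summed values were 46.0 to 56.8 in Scramble and 164 to 226 in shOGT, and their part in the results below was not tested. In a bulk culture, fewer cells expressing a gene and less of its RNA per cell cannot be told apart.

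The table lists only genes that passed a 2-fold change and an adjusted p under 0.05 between these same groups, so a member was listed because it differed and its call by itself is no finding. The table fixes neither the direction nor the level of a member, and it bounds the size of the change from below. Here a gene was called when its limma adjusted p was under 0.05 and its log2 fold change, on the log2(normalized count + 1) scale, was over 1 in size. All 100 members passed the filter on low values and 99 were called, against a background of 99.4% of the 5671 genes tested. Called higher in shOGT were 50 members (50%), against 52.2% of all genes tested and 42.3% of the protein coding genes. Called lower were 49 members (49%), against 47.2% of all genes tested and 57.1% of the protein coding genes. All 100 members were without overlap between the groups, as were 99.5% of all genes tested. The member that was not called, KLHL7, a Kelch receptor, had a log2 fold change of 0.999, just under the threshold, and 21 members lay within 10% above it.

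Members changed by a median of 1.37 in absolute log2 fold change, against 1.69 for all genes tested and 1.57 for the protein coding genes. Reads on members made up 2.14% to 2.30% of the listed reads per Scramble library and 3.62% to 3.92% per shOGT library, and their summed normalized counts were 85666 to 89253 and 130068 to 147185. The balance of directions depended on the scaling of the libraries. Rescaling by a median of ratios, taken over the listed genes with reads in every library, shifted log2 fold changes upward by a median of 0.708. It gave 51 members higher and 19 lower, against 52.5% and 19.2% of all genes tested. Listed genes without a read, which that median leaves out, made up 7.27% to 7.90% per Scramble library and 1.21% to 1.74% per shOGT library. With edgeR and TMM normalization, 49 were higher and 49 lower, against 52.2% and 47.5% of all genes tested. Both scalings take most genes as unchanged, whereas these genes were listed because they differed, so neither settles the balance. The sign of each of the 100 log2 fold changes was kept in each alternative tried. Both directions occurred in nearly all roles, as the plot of the members by role shows. Counts by role below are descriptions, to be set against 42.3% higher and 57.1% lower among the protein coding genes. Under rescaling the lower counts became 7 for RING ligases, 4 for TRIM ligases and 2 each for F-box and Kelch receptors. They became 1 each for deubiquitinases and proteasome members and 0 each for DCAF receptors and cullin scaffolds. Higher counts in these roles did not change, except for Kelch receptors, from 6 to 7.

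**Figure D1:**
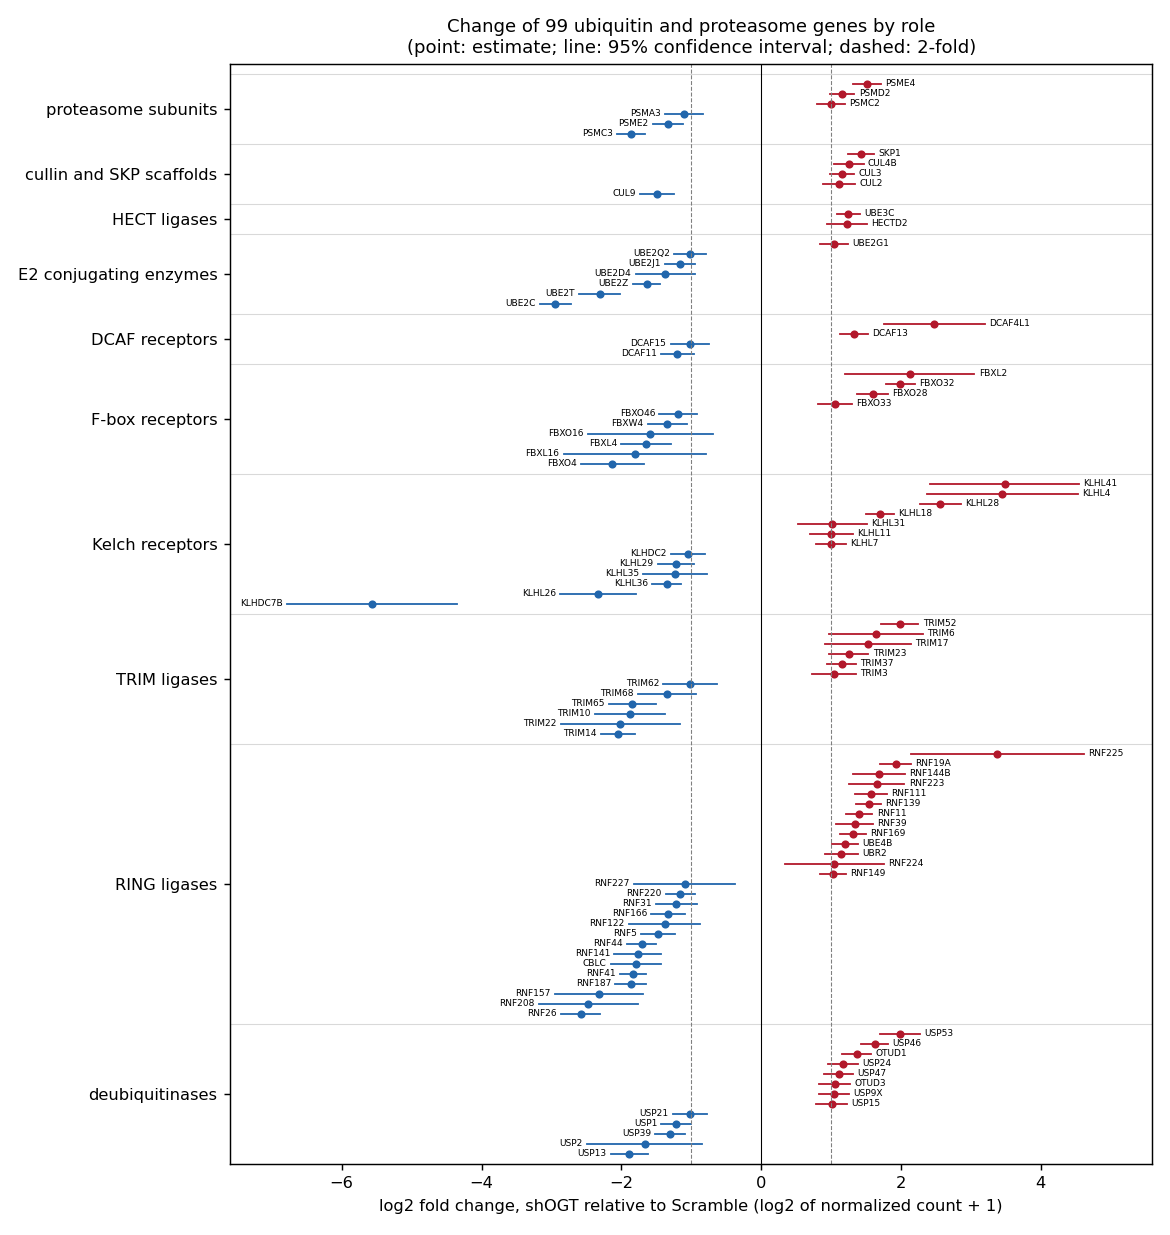
Log2 fold change of 99 of the 100 members, shOGT relative to Scramble, arranged by role, with each point the estimate from 3 against 3 libraries and each line its 95% confidence interval. UBE3C and HECTD2 were on the higher side and E2 enzymes except UBE2G1 on the lower side. The lowest value was that of KLHDC7B at -5.56, a size not fixed by its few shOGT reads.

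The E1 activating enzymes had no member in the table. Of the 7 E2 conjugating enzymes, 6 fell (85.7%, against 57.1% of the protein coding genes) and 1 rose, and under rescaling 2 were still called lower. UBE2C, the E2 that starts ubiquitin chains for the anaphase-promoting complex in mitosis, was at 2415, 2617 and 2315 normalized counts in Scramble and at 282, 350 and 322 in shOGT. It retained 13.0% of the Scramble mean (log2 fold change -2.94, SE 0.103, limma adjusted p = 2.01e-11), the lowest log2 fold change among the E2 enzymes. UBE2T, the partner of the Fanconi anemia ligase FANCL, was at 605, 633 and 617 in Scramble and at 102, 135 and 138 in shOGT (log2 fold change -2.31, SE 0.139). The highest shOGT library of UBE2T lay far under the lowest Scramble library. UBE2Z, which receives ubiquitin from the alternative activating enzyme UBA6, went from 2410 ± 135 to 776 ± 54.4 (SD, n = 3), a log2 fold change of -1.63.

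The E2 enzymes on the list for degradation at the endoplasmic reticulum, UBE2J1 and UBE2G1, moved in opposite directions. UBE2J1, anchored in the membrane of the endoplasmic reticulum, was at 1634, 1709 and 1742 in Scramble and at 659, 797 and 830 in shOGT (log2 fold change -1.16, SE 0.101). UBE2G1, which builds lysine 48-linked chains, was at 1048, 1123 and 1092 in Scramble and at 2025, 2396 and 2322 in shOGT (1.04, SE 0.0910). UBE2G1 was thus the only E2 above its Scramble level, and without shOGT library 5 its log2 fold change was 0.995, under the threshold. UBE2Q2 fell by 1.02 on the log2 scale and stood close to the threshold as well, at -0.973 without Scramble library 2 or 3 and at -0.983 without shOGT library 4. UBE2D4, of the UBE2D family that works with many RING ligases, fell by 1.37 on the log2 scale.

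The HECT ligases UBE3C and HECTD2 rose in shOGT. UBE3C, a ligase that associates with the proteasome and extends chains on its substrates, was at 2982, 3050 and 2976 in Scramble and at 7114, 7335 and 6962 in shOGT (log2 fold change 1.25, SE 0.077, limma adjusted p = 2.33e-09). Replicates of UBE3C lay within a few percent of each other in both groups. HECTD2 went from 165 ± 9.42 to 390 ± 43.6 (SD, n = 3; log2 fold change 1.23). The size of the change was therefore similar in this pair, although their levels differed widely.

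RING ligases were the largest role, with 27 members, of which 13 rose and 14 fell. RNF26, a ligase of the endoplasmic reticulum membrane, was at 775, 670 and 698 in Scramble and at 136, 107 and 114 in shOGT (log2 fold change -2.58, SE 0.132, limma adjusted p = 4.22e-10). RNF208 went from 167 ± 26.4 to 31.9 ± 14.8 (SD, n = 3), a log2 fold change of -2.47. RNF157 had 97.4 ± 11.0 and 19.3 ± 6.12, a log2 fold change of -2.32. After these came RNF187 (-1.86), RNF41, a ligase for the receptor kinase ERBB3 (-1.83), CBLC, the epithelial member of the CBL family that ubiquitinates activated receptor kinases (-1.79), RNF141 (-1.76) and RNF44 (-1.71). RNF41 was the most abundant of these by normalized count, at 2105 ± 69.5 in Scramble and 590 ± 26.3 in shOGT. RNF122, RNF166, RNF31, RNF220 and RNF227 fell by 1.10 to 1.38 on the log2 scale. RNF31 stood at 358, 418 and 396 in Scramble and at 173, 187 and 146 in shOGT (log2 fold change -1.21, SE 0.138), a fall close to that of its neighbor PSME2 given below. Its partner in the linear chain complex, RBCK1, which is no member by name, fell by 1.14 on the log2 scale. With the libraries rescaled as described above, RBCK1 was at -0.424, under the threshold.

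Among the RING ligases that rose, RNF19A, of the RBR class that combines RING and HECT features, was at 494, 520 and 574 in Scramble and at 1877, 2279 and 1908 in shOGT (log2 fold change 1.93, SE 0.103, limma adjusted p = 6.29e-10). RNF144B, also of the RBR class, went from 66.8 ± 4.80 to 218 ± 17.1 (SD, n = 3; log2 fold change 1.69). RNF223 had 67.9 ± 12.0 and 214 ± 21.9 (log2 fold change 1.65). The 2 called RING ligases with the highest mean, RNF11 and RNF111, both rose. RNF11, a small adaptor of HECT ligases, was at 1561, 1680 and 1633 in Scramble and at 3877, 4526 and 4527 in shOGT (1.40, SE 0.0884). RNF111, known as Arkadia, which acts in TGF-beta signaling, was at 1337, 1426 and 1303 in Scramble and at 3413, 4072 and 4687 in shOGT (1.57, SE 0.107). Neither gene had a shOGT library within the range of Scramble.

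A pair of RING ligases of the endoplasmic reticulum showed opposite directions, as UBE2J1 and UBE2G1 did. RNF139, also called TRC8, which acts on sterol-regulated proteins, was at 1152, 1246 and 1271 in Scramble and at 3406, 3618 and 3649 in shOGT (log2 fold change 1.54, SE 0.0833). RNF5 was at 646, 615 and 626 in Scramble and at 244, 227 and 208 in shOGT (-1.47, SE 0.112). Of its 75-base stretches, 9.60% also occur in the pseudogene RNF5P1, so a part of its reads is uncertain. RNF169, which binds ubiquitinated histone H2A at DNA breaks, rose from 808 ± 43.8 to 2008 ± 92.3 (SD, n = 3; log2 fold change 1.31). The remaining RING members that rose were RNF39 (1.34), UBE4B (1.20), UBR2, a recognition protein of N-terminal degradation signals (1.15), RNF224 (1.05), RNF149 (1.03) and RNF225. RNF225, which passed the filter through its shOGT libraries, had reads in only 1 Scramble library, 3 reads, and 25, 12 and 9 reads in the shOGT libraries. The ratio of shOGT to Scramble over these reads was 18.4, with an exact 95% interval of 5.93 to 92.7 that covers counting error only. Its fitted log2 fold change was 3.38, against 4.02 without Scramble library 3 and 5.64 with a pseudocount of 0.1.

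The 12 TRIM ligases divided evenly, with 6 higher and 6 lower. TRIM14, an adaptor of antiviral signaling, was at 1051, 1053 and 1076 in Scramble and at 221, 269 and 282 in shOGT, and retained 24.3% of the Scramble mean (log2 fold change -2.05, SE 0.113, limma adjusted p = 8.2e-10). TRIM22, an interferon-induced antiviral ligase, was low in both groups, at 31.0, 27.9 and 37.7 in Scramble and at 4.21, 10.7 and 7.97 in shOGT (-2.01, SE 0.396). TRIM65, which ubiquitinates the RNA sensor MDA5, went from 557 ± 38.1 to 158 ± 37.1 (SD, n = 3; log2 fold change -1.84). TRIM10 (-1.88), TRIM68 (-1.34) and TRIM62 (-1.02) were the other TRIM ligases that fell.

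TRIM52 rose most among the TRIM ligases, from 151, 173 and 197 in Scramble to 653, 718 and 684 in shOGT (log2 fold change 1.98, SE 0.126). Exons of another gene on the opposite strand cover 28.5% of its exon bases. TRIM6, with 32.6% of its 75-base stretches shared with the read-through gene TRIM6-TRIM34, went from 24.5 ± 10.1 to 75.2 ± 10.2 (SD, n = 3; 1.64). TRIM17 had 26.4 ± 6.96 and 77.4 ± 14.6 (1.53). TRIM37, a ligase that controls centrosome number, was the most abundant TRIM gene in shOGT, at 1608, 1986 and 1811 against 765, 828 and 829 in Scramble (1.15, SE 0.0975). TRIM23, which carries an ARF GTPase domain, rose by a log2 fold change of 1.26 and TRIM3 by 1.04.

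Cullin scaffolds and their SKP adaptor rose with the exception of CUL9. SKP1, the adaptor that holds F-box proteins on CUL1, was at 1294, 1466 and 1441 in Scramble and at 3637, 3697 and 4007 in shOGT (log2 fold change 1.43, SE 0.0865, limma adjusted p = 1.87e-09). CUL3, the scaffold for Kelch receptors, was at 1214, 1274 and 1279 in Scramble and at 2707, 2920 and 2793 in shOGT (1.16, SE 0.0817). CUL4B, the scaffold for DCAF receptors, was at 1593, 1774 and 1712 in Scramble and at 3554, 4535 and 4109 in shOGT (1.26, SE 0.0977). CUL2, the scaffold of the VHL ligase, went from 874 ± 50.3 to 1902 ± 264 (SD, n = 3; 1.11). CUL9, an atypical cullin that binds p53, was at 614, 542 and 570 in Scramble and at 206, 201.4 and 205 in shOGT (-1.49, SE 0.113), so that its shOGT libraries were nearly equal. CUL1 and RBX1 were not analysed here.

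F-box receptors, which choose the substrates of CUL1 ligases, fell in 6 and rose in 4 of 10 members. FBXO32, the atrophy-associated receptor known as atrogin-1, was at 331, 327 and 317 in Scramble and at 1218, 1290 and 1376 in shOGT (log2 fold change 1.99, SE 0.0968, limma adjusted p = 2.71e-10). FBXO28, a receptor reported to ubiquitinate c-Myc, was at 952, 1164 and 1092 in Scramble and at 2880, 3389 and 3445 in shOGT (1.60, SE 0.102). FBXL2 had few reads, with 10.6, 9.01 and 4.60 normalized counts in Scramble and 21.1, 48.2 and 48.9 in shOGT, and its log2 fold change of 2.12 carried an SE of 0.432. FBXO33 rose by a log2 fold change of 1.05. FBXO4 fell from 185 ± 32.6 to 41.3 ± 3.26 (SD, n = 3; -2.13), and FBXL4, which limits mitophagy, from 304 ± 24.6 to 97.5 ± 17.9 (-1.64). FBXL16 was low, at 32.3 ± 12.4 and 9.27 ± 5.28 (-1.81). FBXO16 (-1.59), FBXW4 (-1.34) and FBXO46 (-1.19) also fell, and FBXO16 shares 67.3% of its 75-base stretches with ZNF395.

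Of the 13 Kelch receptors, 6 rose, 6 fell and KLHL7 stayed just under the threshold. KLHDC7B, which passed the filter through its Scramble libraries, had the lowest log2 fold change of all members. It was at 94.9, 76.6 and 72.7 in Scramble, and only shOGT library 4 held any reads, 4 in all, so that the group retained 1.72% of the Scramble mean (log2 fold change -5.56, 95% confidence interval -6.78 to -4.34). Without that library the fitted value was -6.35, and with a pseudocount of 0.1 it was -7.85, so the size of this fall is not fixed by so few reads. KLHL28 stood at the other end among receptors with ample counts, at 178, 233 and 261 in Scramble and at 1166, 1395 and 1400 in shOGT (log2 fold change 2.56, SE 0.138, limma adjusted p = 6.62e-10). KLHL26 was at 219, 141 and 181 in Scramble and at 34.7, 25.7 and 45.5 in shOGT (-2.33, SE 0.253). KLHL18, a CUL3 receptor, rose from 438 ± 13.7 to 1430 ± 53.1 (SD, n = 3; 1.70), and KLHL36 fell from 1130 ± 64.9 to 443 ± 21.1 (-1.35).

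The other Kelch receptors had smaller changes or few reads. KLHL31 rose by a log2 fold change of 1.02, which became 0.943 without Scramble library 3, and KLHL11 rose by 1.004, which became 0.920 without shOGT library 5 and also fell short without Scramble library 1 or 3. KLHL35 (-1.23), KLHL29 (-1.22) and KLHDC2, a CUL2 receptor that reads C-terminal degradation signals (-1.04), fell. KLHDC2 overlaps exons of NEMF on the opposite strand over 44.0% of its exon bases. KLHL4 was at 0.887, 1.80 and 4.60 in Scramble and at 18.9, 52.5 and 35.3 in shOGT. KLHL41, a receptor of skeletal muscle, passed the filter only through its shOGT libraries. It had no reads in any Scramble library but 7, 19 and 6 in those of shOGT. This is at least 4.25-fold higher against a floor of 3 reads per library. This floor covers counting error only, and KLHL41 shares 36.2% of its 75-base stretches with the gene AC093899.2.

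Among the 4 DCAF receptors, which serve CUL4 ligases, DCAF13 and DCAF4L1 rose and DCAF11 and DCAF15 fell. DCAF13, which also takes part in ribosomal RNA processing, was at 1126, 1353 and 1323 in Scramble and at 2968, 3240 and 3337 in shOGT (log2 fold change 1.33, SE 0.0943). DCAF11 was at 935, 829 and 874 in Scramble and at 438, 361 and 355 in shOGT (-1.20, SE 0.111). DCAF4L1 went from 8.74 ± 1.53 to 53.5 ± 10.4 (SD, n = 3; 2.48). DCAF15, the receptor recruited by aryl sulfonamide drugs to degrade the splicing factor RBM39, had 426 ± 33.6 and 210 ± 21.5 (-1.02), and fell short of the threshold without Scramble library 2 (-0.971) or shOGT library 5 (-0.946).

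Deubiquitinases rose in 8 and fell in 5 of 13 members. USP53, a protein of tight junctions, was at 2031, 2758 and 2511 in Scramble and at 7713, 10427 and 10963 in shOGT (log2 fold change 1.99, SE 0.134, limma adjusted p = 5.35e-09). USP24, another of the most abundant deubiquitinases, was at 3544, 3933 and 4063 in Scramble and at 7559, 9239 and 9287 in shOGT (1.17, SE 0.0977). USP46, which is activated by WDR48, rose from 549 ± 14.4 to 1698 ± 81.7 (SD, n = 3; 1.63), and OTUD1 from 386 ± 10.8 to 997 ± 49.7 (1.37). USP47 (1.11), OTUD3 (1.05), USP9X (1.04) and USP15 (1.01) rose less.

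The deubiquitinases that fell were USP13, USP2, USP39, USP1 and USP21. USP13, reported to stabilize c-Myc, was at 571, 514 and 574 in Scramble and at 153, 157 and 138 in shOGT (log2 fold change -1.88, SE 0.123, limma adjusted p = 4.09e-09). USP1, which removes ubiquitin from FANCD2 and PCNA, was at 2593, 2966 and 2829 in Scramble and at 1053, 1270 and 1310 in shOGT (-1.21, SE 0.0999). USP1 and UBE2T, which act against each other on FANCD2, therefore fell together. USP39, a splicing factor of this family without deubiquitinase activity, went from 1347 ± 38.5 to 547 ± 53.7 (SD, n = 3; -1.30). USP2 was near the low end of detection, at 33.7, 25.2 and 30.4 in Scramble and at 11.6, 5.36 and 10.2 in shOGT (-1.66, SE 0.383), and 17.5% of its exon bases lie opposite another gene. USP21 fell by 1.02 on the log2 scale.

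The 6 proteasome members, which by the rule include no PSMB gene, divided evenly as well. PSMD2, a base subunit of the 19S regulatory particle that binds ubiquitin shuttle factors, was the most abundant member in shOGT both by normalized count and per kilobase. It was at 6389, 6404 and 6036 in Scramble and at 14778, 13561 and 13828 in shOGT (log2 fold change 1.16, SE 0.0809, limma adjusted p = 7.39e-09). PSME4, the PA200 activator that promotes degradation of acetylated histones, was at 2672, 2894 and 2793 in Scramble and at 7046, 8685 and 8323 in shOGT (1.52, SE 0.0923). PSME2, the interferon-inducible PA28 subunit, was at 1204, 1314 and 1204 in Scramble and at 519, 444 and 510 in shOGT (-1.34, SE 0.0992), opposite in direction to the other activator gene. PSMA3, an alpha subunit of the 20S core, was at 839, 986 and 1032 in Scramble and at 365, 472 and 497 in shOGT (-1.10, SE 0.128), and was at -0.967 without shOGT library 4.

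PSMC2 and PSMC3 encode ATPases of the same hexameric ring of the 19S particle, in which each subunit is present once, and they moved apart. PSMC3 was at 1659, 1557 and 1525 in Scramble and at 461, 425 and 420 in shOGT, and retained 27.5% of the Scramble mean (log2 fold change -1.86, SE 0.0928, limma adjusted p = 3.42e-10). PSMC2 was at 1198, 1390 and 1277 in Scramble and at 2481, 2451 and 2802 in shOGT (1.0001, SE 0.092). The groups of PSMC2 were far apart, but its fold change sat at the threshold, with log2 values of 0.949 without Scramble library 1, 0.995 without Scramble library 3, 0.939 without shOGT library 6 and 0.991 with edgeR and TMM. The 4 other ATPase genes of the ring were not analysed here.

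**Figure D2:**
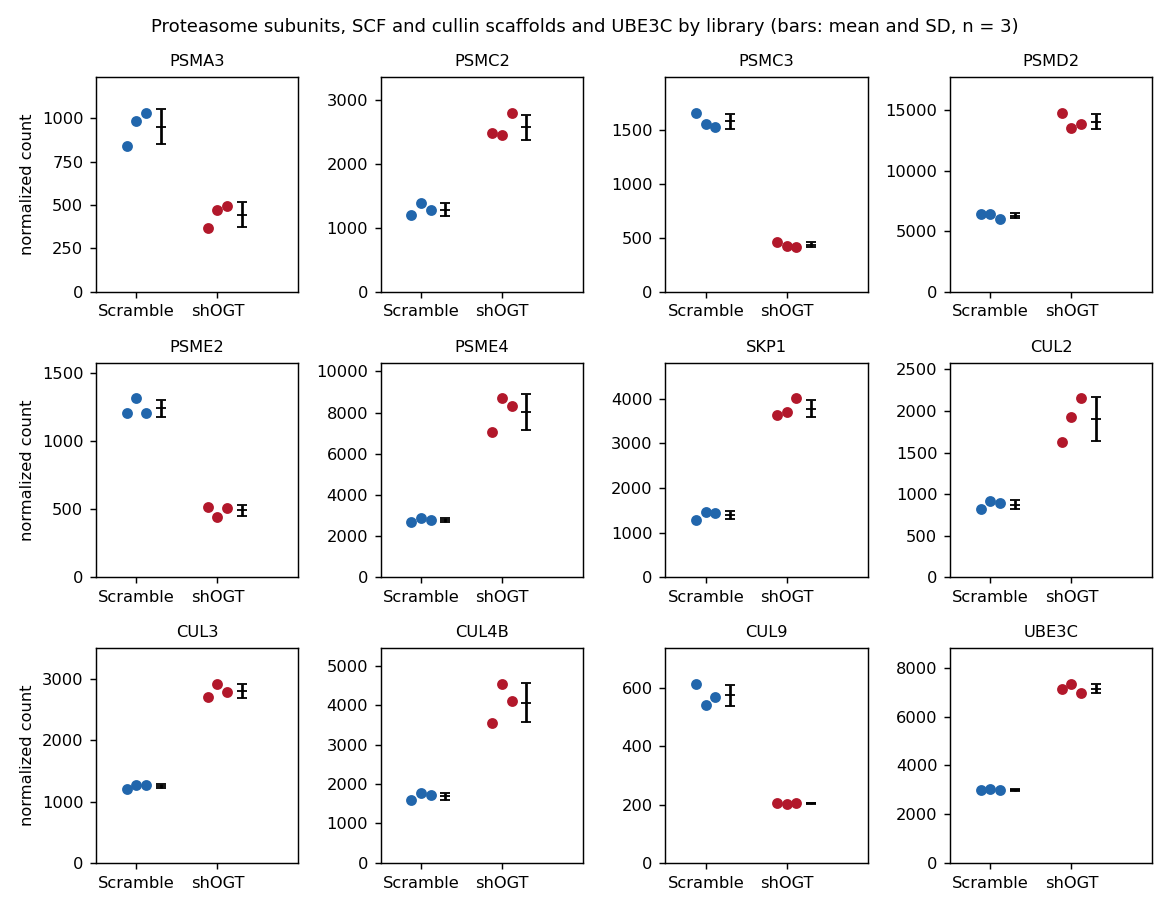
Normalized counts of the 6 proteasome members, SKP1, the cullins and UBE3C in each library (points), with the mean and SD of 3 libraries beside them and axes starting at 0. PSMC3, PSME2, PSMA3 and CUL9 lay lower in each shOGT library, and the other 8 genes lay higher, with no overlap between the groups.

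The ratio of a pair of genes within a library does not depend on how the libraries were scaled, save for the 1 added to each count. The pairs below were picked with their values known and are given as a description. The log2 ratio of PSMC2 to PSMC3 was -0.469, -0.164 and -0.255 in Scramble but 2.43, 2.52 and 2.74 in shOGT. The same ratio for PSME4 to PSME2 went from 1.17 ± 0.0405 to 4.02 ± 0.262 (SD, n = 3). For CUL3 to CUL9 it went from 1.13 ± 0.128 to 3.77 ± 0.0726. On the list for degradation at the endoplasmic reticulum, RNF139 to RNF5 went from 0.958 ± 0.107 to 3.97 ± 0.165 and UBE2G1 to UBE2J1 from -0.639 ± 0.0338 to 1.56 ± 0.0706, so that UBE2G1 passed from the lower to the higher of the pair. TRIM52 to TRIM14 changed sign as well, from -2.61 ± 0.175 to 1.41 ± 0.142.

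**Figure D3:**
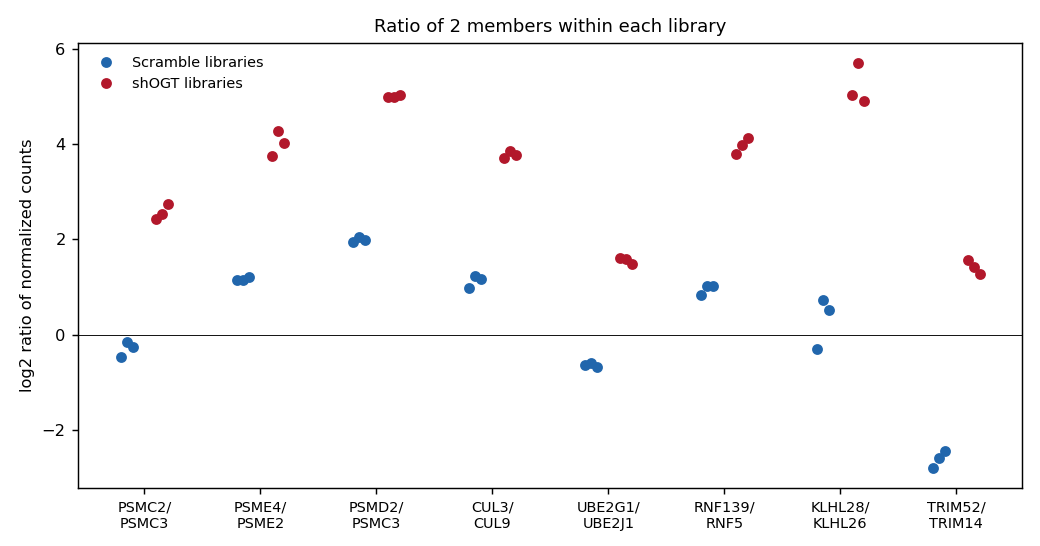
Log2 ratio of normalized counts, each with 1 added, of 2 members within each library, for 8 pairs. Blue points are Scramble and red points shOGT libraries. In each pair the 3 shOGT libraries lay above the 3 Scramble libraries, as for PSMD2 to PSMC3 at 1.99 ± 0.0478 in Scramble and 5.01 ± 0.0246 in shOGT (SD, n = 3).

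The order of the members by level also changed. Levels between genes were compared as normalized counts per kilobase of the gene length given in the table. In Scramble, UBE2C held the first rank at 1904 ± 119 (SD, n = 3), followed by PSMD2 at 1151 ± 38.3, PSMC3 at 694 ± 30.9 and USP1 at 656 ± 44.3, the last pair within their spread. In shOGT, PSMD2 was first at 2578 ± 117, followed by RNF11 at 1380 ± 120 and RNF139 at 1318 ± 49.0, the last pair again within their spread. Next came USP53 at 812 ± 146 and PSME4 at 783 ± 84.1, whose values also overlapped. UBE2C ranked 26 in shOGT, at 247 ± 26.6 per kilobase, and PSMC3 ranked 31. USP53 had ranked 29 and PSME4 22 in Scramble.

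Genes of 5 functional lists, written with earlier results of these data known, were read beside the members. Their counts are descriptions, to be set against the 42.3% higher and 57.1% lower among the protein coding genes tested. Of 21 genes for the turnover of c-Myc, 6 were in the table, 4 higher and 2 lower. FBXO28 and FBXO32 among the members rose, as did FBXW7 (log2 fold change 1.302) and BTRC (2.01), receptors of SCF ligases. USP13 and USP2 fell, of which only USP13 stayed called lower under rescaling. Being on this list does not say whether a gene raises or lowers c-Myc, since ubiquitination need not lead to degradation. The stability of c-Myc was not measured in these libraries. MAGI3, a c-Myc ligase that the study examined, was not analysed here. The study also examined FBXW7 and reported no clear change in its binding to c-Myc when O-GlcNAc was raised or lowered with inhibitors. That was a measure of protein binding, unlike the RNA levels here.

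Of 23 interferon-induced genes, 6 were in the table and all 6 fell, TRIM14, TRIM22 and PSME2 among the members and, beside them, the immunoproteasome subunit PSMB8 (log2 fold change -1.42), the ISG15 ligase HERC5 (-3.41) and the ISG15 protease USP18 (-2.09). Under rescaling 4 of the 6 stayed lower by over 2-fold. Of 30 genes for degradation at the endoplasmic reticulum, 2 rose, RNF139 and UBE2G1, and 4 fell. The latter were RNF5, UBE2J1, SEL1L (-1.26) and OS9 (-1.56), which deliver substrates to the membrane ligase complex. Under rescaling 0 of these 4 were called lower.

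Of 28 genes for the anaphase-promoting complex and SCF in mitosis, 8 were in the table, 2 higher and 6 lower. UBE2C fell together with the activator CDC20 (log2 fold change -1.10), the subunits ANAPC5 (-1.66) and CDC23 (-1.43), the SCF cofactor CKS1B (-1.18) and the F-box cyclin CCNF (-1.31). SKP1 and the subunit ANAPC13 (1.03) were the genes of this list that rose. UBE2C alone stayed called lower under rescaling. Of 33 genes for DNA damage signaling, 11 were in the table, 5 higher and 5 lower. UBE2T and USP1 fell, as did the ligase pair BRCA1 (-1.93) and BARD1 (-1.68) and the deubiquitinase BAP1 (-1.82). RNF169, RNF111 and CUL4B rose, with RAD18, which ubiquitinates PCNA (1.03), and HLTF, which had few reads (1.98), while RFWD3 was just under the threshold at -0.9996. Under rescaling 3 of the 5 stayed lower and all 5 that rose stayed higher.

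Genes of the same machinery with other names were counted in the same way. Of 19 genes for the beta subunits of the 20S core and its assembly, 4 were in the table. PSMB5, which carries the chymotrypsin-like activity, fell (log2 fold change -1.34), as did PSMB8 and PSMG1 (-1.02), and the assembly factor POMP rose (1.56). Among genes for ubiquitin-like proteins and shuttles, UBL4A (-1.12) and NBR1, an autophagy receptor for ubiquitinated cargo (-1.11), fell. Under rescaling both lost their call, at -0.399 for UBL4A and -0.394 for NBR1. Of the COP9 signalosome and NEDD8 cycle, which switches cullins off and on, 4 of 6 listed genes rose, COPS2 (1.25), COPS8 (1.04), COPS9 (1.25) and DCUN1D1 (1.05), and COPS7A (-1.14) and the NEDD8 activating subunit NAE1 (-1.35) fell. Ligases with other names split into 9 higher and 10 lower, and deubiquitinases with other names into 2 higher and 6 lower. Under rescaling the lower counts were 0 for the core and its assembly, 0 for the COP9 and NEDD8 list, 4 for the ligases and 1 for the deubiquitinases, with no change in the higher counts. KEAP1, a CUL3 receptor, was among the ligases with other names and fell (-1.06, and -0.345 under rescaling).

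Direction among the members went with base composition. Taking the transcript with the longest coding sequence of each gene, the median GC content was 42.8% in members that rose and 54.2% in members that fell, against 46.8% and 55.3% in the protein coding genes of the table. Under 40% GC, 12 of 14 members were higher in shOGT (85.7%, against 68.9% of protein coding genes in that class). Between 50% and 55%, 2 of 13 were higher (15.4%, against 34.9%), and at 60% or more, 5 of 19 (26.3%, against 25.3%). Across the 100 members, GC content and log2 fold change had a Spearman rho of -0.41, and across the protein coding genes of the table -0.30, over points that share the same 6 libraries. Members that rose also had longer transcripts (median 4330 bases against 3122, and 3236 against 2740 in the protein coding genes of the table). Their mean counts were higher than those of members that fell (median 1275 against 372), whereas the protein coding genes showed the opposite order (159 against 318). USP53, with the lowest GC content of all members at 34.5%, was among those that rose most, whereas RNF225, with the highest at 76.0%, rose too. The part of GC content, length or level in the directions was not tested.

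**Figure D4:**
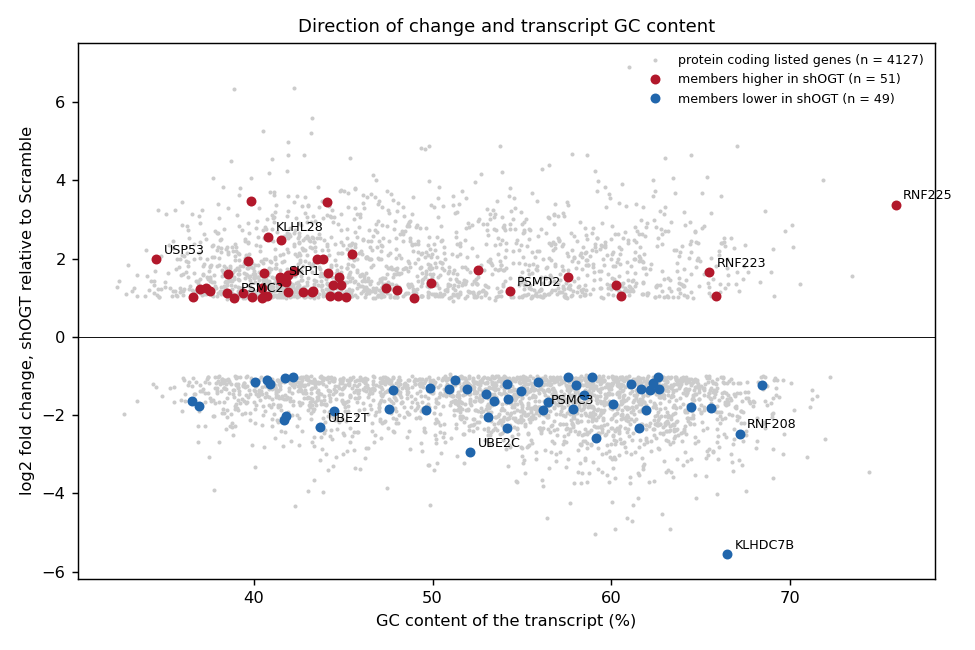
GC content of the transcript in percent against the log2 fold change, shOGT relative to Scramble, for the protein coding genes of the table (gray), the 51 members above 0 (red) and the 49 below 0 (blue). Red points lie mostly at the left, with a median GC content of 42.8% for called members, and blue points mostly at the right, with a median of 54.2%, and the empty band around 0 is the 2-fold limit of the table.

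Some member values rest on reads that could belong to another gene. Exons of a gene on the opposite strand overlapped 31 members, and the overlap was over 10% of the exon bases in 7 (KLHDC2, RNF169, RNF26, TRIM37, TRIM52, UBE2D4 and USP2). The counting is not stated to use strand, so such reads cannot be told apart. Over 5% of the 75-base stretches were shared with another gene in 7 members: DCAF11, FBXO16, KLHL41, PSME2, RNF31, RNF5 and TRIM6. For RNF31 the share was 46.7%, with the read-through gene AL136295.5. In addition, the exons of PSME2 and RNF31 overlap each other over 6.03% and 4.34% of their bases. A mean under 20 normalized counts was found for 6 members, FBXO16, KLHL4, KLHL41, RNF225, TRIM22 and USP2.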

How the data were processed

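RNA was sequenced from 3 Scramble and 3 shOGT libraries of HT-29 cells. The submitters' processing notes name cutadapt 1.9, HISAT2 2.0.4, UMI-tools, StringTie 1.3.4d, DESeq2 and edgeR, without roles, and a mouse build, but all 5681 gene positions matched human GENCODE 29 (GRCh38). Paper and labels describe different library kits. The authors deposited signal values, each a read count divided by a size factor of its library, and whole reads were recovered for 100% of them (tolerance 0.02). The deposited log2 fold changes and p-values hold the authors' own comparison and served only to learn that the table keeps genes past 2-fold and an adjusted p of 0.05.

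limma 3.58.1 (R 4.3.3, trend, group as the only term) was fitted to log2(value + 1) for 5671 genes. These had at least 1 in at least 3 libraries, and Benjamini-Hochberg adjustment was over all of them. The fit had first been tested on simulated data. Most genes were unchanged there, unlike here, so that test does not cover these calls. Alternatives were rescaling by the median of ratios, edgeR 4.0.16 with and without TMM, DESeq2 1.42.0, a pseudocount of 0.1, no filter, a mean of at least 5, an ordinary linear model and each library left out.

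Members, roles and lists were chosen with earlier results of these data known. Named were OGT, called members of 5 lists (c-Myc turnover, interferon induced, degradation at the endoplasmic reticulum, mitosis, DNA damage), all called members of roles with up to 6, and in larger roles the 3 highest and 3 lowest (mean of at least 20, no overlap) and the 2 most abundant. Other genes, the ratio pairs and the interferon element were named after their values were seen or for shared reads. Unlisted genes were not analysed here, and some genes are not reported here.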

Additional observations from a re-analysis of the deposited data

How the results depend on the processing

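All 100 members kept their direction in each alternative. Rescaling by the median of ratios left 19 members called lower, against 49, with a median upward shift of 0.708 over all genes. It took 14 of the 63 members named by rule under the 2-fold limit, all of them lower in shOGT: CUL9, DCAF11, DCAF15, FBXL4, KLHL36, PSMA3, PSME2, RNF5, UBE2J1, UBE2Q2, UBE2Z, USP1, USP2 and USP39. Other members given above also lost their lower call under rescaling. These were FBXO16, FBXO46, FBXW4, KLHDC2, KLHL29, KLHL35, RNF122, RNF166, RNF220, RNF227, RNF31, RNF44, TRIM62, TRIM68, UBE2D4 and USP21. Called members numbered 98 to 100 with edgeR, edgeR and TMM, DESeq2, a pseudocount of 0.1, no filter, a mean of at least 5 and an ordinary linear model. With 1 library left out they numbered 91 to 96, of which 45 to 51 were higher and 45 to 49 lower, and 81 members were called in all 6 of these fits. OGT stayed between -4.42 and -4.24 on the log2 scale in them. No paired analysis was possible because the groups share no replicate numbers (Scramble 1 to 3, shOGT 4 to 6). Depth is known for the listed genes only, and it limits the 6 members with a mean under 20.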

Other observations

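Some names in the table had been turned into dates, and their gene identifiers were looked up in GENCODE 29. The entries 9-Mar, 7-Mar and 3-Mar are MARCH9, MARCH7 and MARCH3, membrane-associated RING ligases that the name rule does not count as members. All 3 were higher in shOGT, MARCH9 at 492 ± 27.7 in Scramble and 1154 ± 117 in shOGT (SD, n = 3; log2 fold change 1.22), MARCH7 at 1073 ± 100.3 and 2517 ± 396 (1.22) and MARCH3 at 62.7 ± 7.16 and 214 ± 14.6 (1.76). The entry 1-Mar is MARC1, a mitochondrial amidoxime reductase and no ligase, which was lower at 84.2 ± 7.04 and 33.3 ± 13.6 (-1.38).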
